A study of Mus musculus with 14 samples.

Results

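The 38 Hox genes described here are homeodomain transcription factor genes that lie in 4 mouse clusters. They were taken by name from the mouse Hox family, and all 38 were found among the 36047 genes of the deposited tables. The clusters hold 10 Hoxa genes on chromosome 6 (52162417 to 52260880, minus strand), 10 Hoxb genes on chromosome 11 (96194316 to 96368256, plus strand), 9 Hoxc genes on chromosome 15 (102921103 to 103036852, plus strand) and 9 Hoxd genes on chromosome 2 (74668310 to 74765142, plus strand), in the GENCODE annotation of mm10. They are read here by cluster and by paralog number, as 7 anterior genes (paralogs 1 to 3), 15 central genes (paralogs 4 to 8) and 16 posterior genes (paralogs 9 to 13).

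Hox genes give cells of the embryo their position along the head to tail axis. Within a cluster the genes are switched on in order, from the anterior end, which is expressed early and from the hindbrain back, to the posterior end, which is expressed late in the lower trunk, tail and limbs, a property called collinearity. Wnt, FGF and retinoic acid signals, the caudal (Cdx) factors and the Polycomb and trithorax complexes act on the clusters, and Hox proteins bind DNA with the TALE cofactors Meis and Pbx.

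RNA was sequenced from mouse embryoid bodies, aggregates of embryonic stem cells that differentiate in suspension, grown in mesodermal medium. The control was the iHA-Foxk1 line and the other line was Foxk1 KO, lacking by its label the forkhead factor Foxk1. Titles of the day 3 and 5 controls name iHA-Foxk1 and carry the letters ND, which are not explained there, while those of day 10 say only control, and the protocol text equates control with iHA-Foxk1. Groups were control and Foxk1 KO on days 3, 5 and 10, and on day 10 also Foxk1 KO with IWR1, an inhibitor of canonical Wnt signalling that acts through Axin, with 2 libraries in each of the 7 groups and 14 in all. Stem cells of both lines were grown with serum on irradiated mouse embryonic fibroblasts, which were reduced by a plating step before differentiation. For IWR1 dose and timing, genetic background and the making of both lines, the sources used here give nothing. Since there is 1 line per genotype, an effect of Foxk1 and any other difference between the lines cannot be told apart.

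Libraries of days 3 and 5 held 10574194 to 11621032 counts and those of day 10 held 34466708 to 52747273. Foxk1 itself was at 86.3 and 76.4 CPM (counts scaled by TMM library size to a common total) in the day 3 control libraries and at 16.2 and 16.5 CPM in the KO libraries, and at day 5 at 134 and 133 CPM against 38.2 and 33.6 CPM. At day 10 it was at 65.0 and 80.1 CPM in control, 71.3 and 41.8 CPM in the libraries labelled Foxk1 KO, and 26.4 and 52.9 CPM in those labelled Foxk1 KO with IWR1, and no day 10 comparison called it (edgeR adjusted p from 0.186 to 0.722). Directions given below for day 10 KO therefore rest on the labels. T, a primitive streak and early mesoderm gene, was at 797 and 850 CPM in the day 3 control and at 55.5 and 76.1 CPM in the day 3 KO. Of the 38 genes, 21 had enough counts to be tested at days 3 and 5 and 35 at day 10. The genes not tested at day 10 were Hoxb13, Hoxc12 and Hoxc13.

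In several groups the libraries differed in 1 direction over most Hox genes. In day 5 KO, library 1 was above library 2 for 19 of the 21 tested Hox genes, by a median of 1.62 on the log2 scale, while the median over all genes was 0.008. In day 10 control, library 2 was above library 1 for 28 of 35, and the median difference of library 1 from library 2 was -0.67. In day 10 KO with IWR1, library 1 was above library 2 for 5 of 35, with a median of -0.32. The lean was smaller in day 10 KO, where library 1 was above for 12 of 35 with a median of -0.19. In day 5 control it was above for 14 of 21, with a median of 0.18.

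At day 3 the clusters were close to the detection limit. The summed level of the 38 genes was 10.2 ± 1.19 CPM (SD, n = 2) in control and 7.68 ± 0.61 CPM (SD, n = 2) in KO. In each line 14 genes had no count in either library. A level of 1 CPM in both libraries was reached by 2 genes in control and by 1 in KO. Hoxb1, the anterior gene that marks rhombomere 4 of the hindbrain, was the highest per kilobase of exon in both lines, at 1.99 ± 0.29 CPM per kilobase in control and 0.61 ± 0.16 in KO (SD, n = 2).

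Hoxb1 was the only Hox gene called at day 3. It held 5.11 and 4.14 CPM in the control libraries and 1.15 and 1.69 CPM in the KO libraries. The groups did not overlap, and the level fell in KO (log2 fold change -1.69 ± 0.41, SE, edgeR adjusted p = 0.0115, from 105 counts in control and 33 in KO). Among all 14430 genes tested, 32.9% were called at day 3. Many of the 21 had too few counts at day 3 to be called. Hoxa10 had 0 counts in both groups, and Hoxc6, Hoxc8, Hoxc10, Hoxd3 and Hoxd4 had 0 in KO and 1 in control. The 1 of 21 is thus not a measure of how often Hox genes changed. Without control library 1 or without KO library 1 the call was lost. No Hox gene was called higher by edgeR or had an unadjusted p under 0.05 in that direction, while DESeq2 called Hoxb1 and Hoxb7 and had 4 genes higher at an unadjusted p under 0.05. Both KO libraries lay above both controls in 5 of 21 genes (Hoxb4, Hoxb5, Hoxb7, Hoxb8 and Hoxb9), where 36.7% of all genes did, and below in 5 (Hoxb1, Hoxb2, Hoxb3, Hoxd1 and Hoxd9), where 37.8% did.

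**Figure D1:**
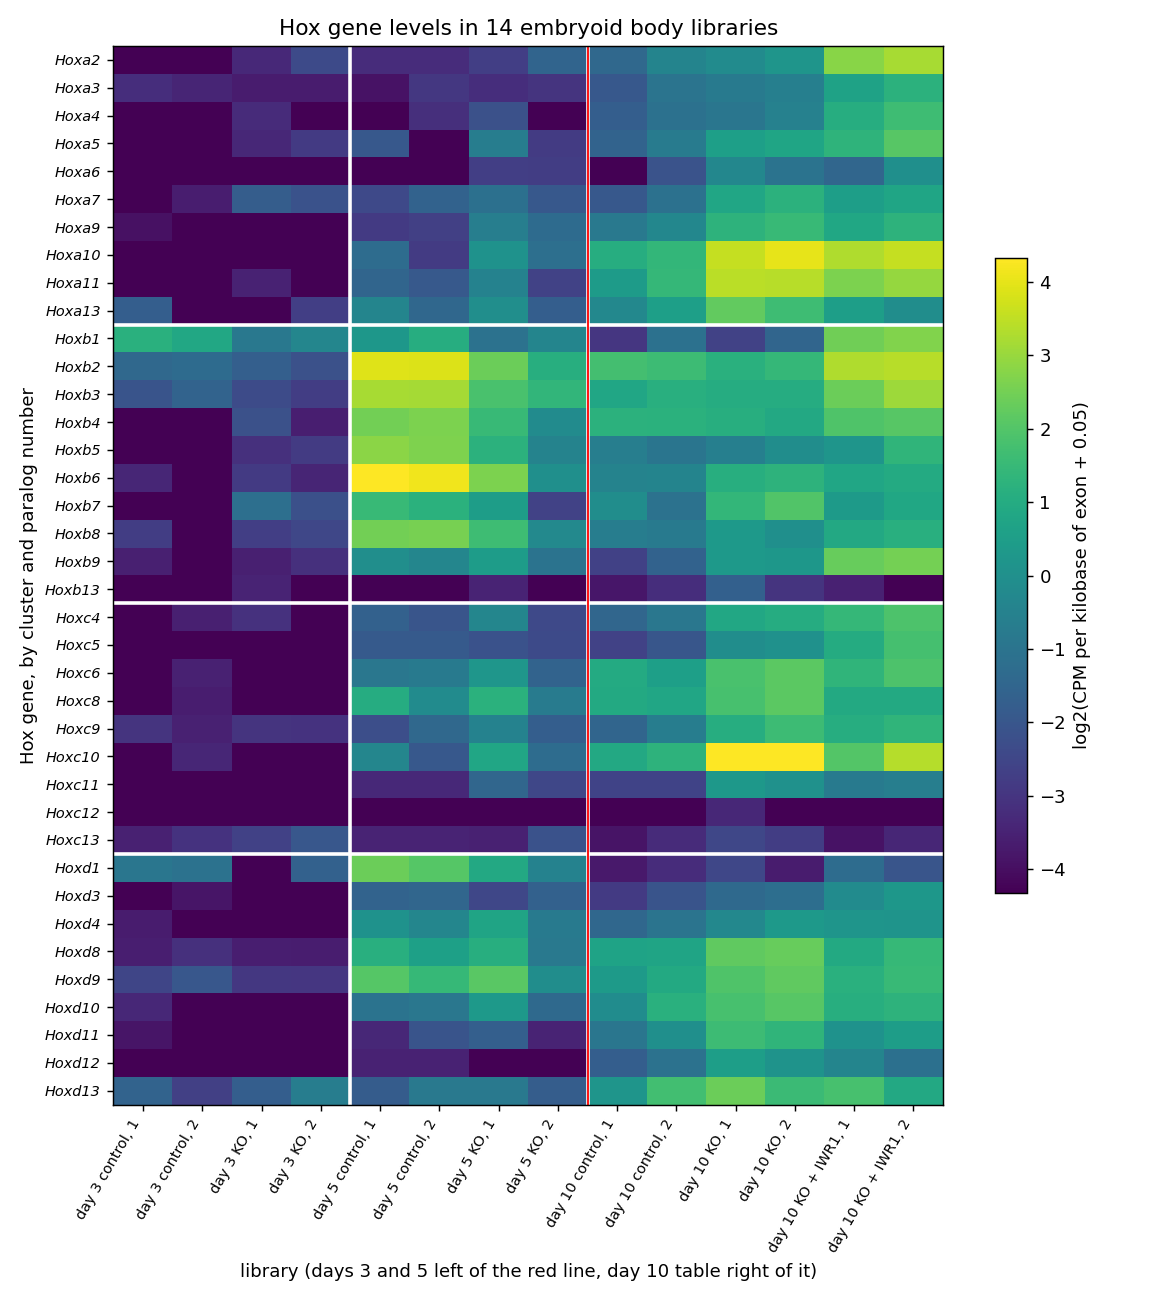
Levels of the 38 Hox genes (rows, by cluster and paralog number) in the 14 libraries (columns), as log2 of CPM per kilobase of exon plus 0.05, with days 3 and 5 left of the red line and the separately normalized day 10 table right of it. Day 3 is dark, Hoxb2 to Hoxb6 and Hoxb8 are brightest in day 5 control, and Hoxa10, Hoxa11 and Hoxc10 are brightest in day 10 KO.

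Between day 3 and day 5 the Hox genes of the control rose, led by the Hoxb cluster. Their summed level went from 10.2 to 224.5 ± 12.7 CPM (SD, n = 2), and the Hoxb cluster held 80.6% to 84.3% of it. Of the 21 tested genes 17 were called higher and 0 lower, against 30.6% of all genes called higher and 60.8% in either direction. Only 2 of the 38 genes reached 1 CPM in both day 3 control libraries. Most of the 21 thus passed the filter on low counts through day 5 libraries, so the counts of rises here were partly set by the filter. No Hox gene was lower at an unadjusted p under 0.05, and DESeq2 called 18 higher and 0 lower. Both day 5 libraries lay above both day 3 libraries in 19 of 21, where 41.7% of all genes did, and below in 0, where 42.1% did. All 9 tested central genes were called. The anterior genes contributed 4 of 5 and the posterior genes 4 of 7.

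The strongest members at day 5 in control were Hoxb6, Hoxb2 and Hoxb3. Hoxb6, a gene of the lower cervical and thoracic levels, went from 0.088 and 0 CPM at day 3 to 39.3 and 34.9 CPM, and was the highest per kilobase at 18.9 ± 1.61 CPM per kilobase (SD, n = 2). Hoxb2, a hindbrain gene, went from 1.14 and 1.23 CPM to 51.8 and 50.7 CPM (log2 fold change 5.42 ± 0.49, SE, edgeR adjusted p = 0.000124). Hoxb3 went from 0.79 and 1.23 CPM to 39.0 and 37.7 CPM (5.23 ± 0.25, adjusted p = 3.78e-07). In these 3 genes both day 5 libraries lay far above both day 3 libraries.

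Hoxb4 and Hoxb5, central neighbours that are expressed from the hindbrain and upper spinal cord back, had no count in either day 3 control library. At day 5 they held 14.4 and 15.6 CPM and 19.6 and 17.3 CPM. With the day 3 group set to 3 counts in all, these are at least 113-fold and at least 140-fold higher. Hoxb8 had 3 counts at day 3 and 303 at day 5, a ratio of 114 with a 95% counting interval of 38.6 to 555. The Hoxb1 level did not pass the test over this interval, with 2.68 and 4.77 CPM at day 5. Of the Hoxd genes, Hoxd1 reached 9.61 and 7.65 CPM and Hoxd9 reached 8.62 and 5.76 CPM, while every Hoxa gene stayed at or under 1.78 CPM in both libraries. The Hoxa9 call, on 1 count against 11, was lost without day 3 control library 2 or either day 5 control library.

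The KO line also called 17 of 21 higher and 0 lower between day 3 and day 5, where 28.3% of all genes were called higher and 53.8% in either direction. As in control, most of the 21 passed the filter through day 5 libraries, which favours rises. Libraries of day 5 lay above those of day 3 in 18 of 21, where 39.8% of all genes did, and below in 0, where 37.4% did. No Hox gene was lower at an unadjusted p under 0.05, and DESeq2 called 18 higher and 0 lower. The summed level in KO went from 7.68 CPM to 132 CPM in library 1 and 48.9 CPM in library 2. Hoxb3 rose from 0.62 and 0.42 CPM to 14.9 and 10.9 CPM (log2 fold change 4.61 ± 0.30, SE, edgeR adjusted p = 3.02e-06). Hoxa9 and Hoxd4, with no count at day 3, were at least 20.5-fold and at least 24-fold higher at day 5.

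**Figure D2:**
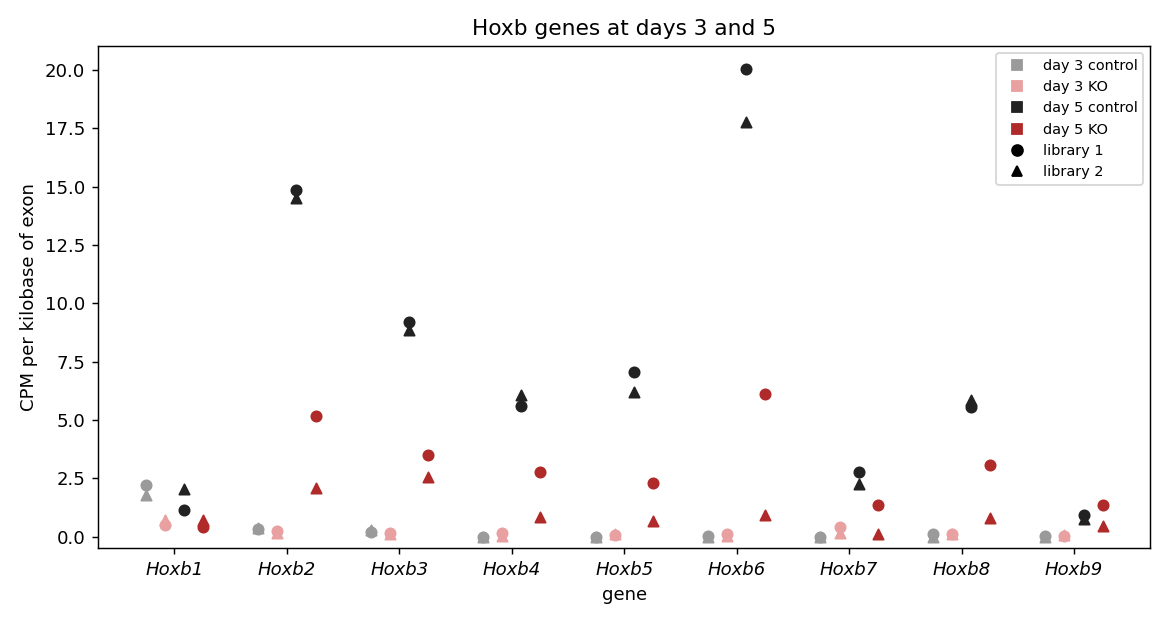
Level of 9 Hoxb genes in CPM per kilobase of exon at days 3 and 5, with circles for library 1 and triangles for library 2. Both day 5 control libraries lie above both day 5 KO libraries for Hoxb1 to Hoxb8, and the KO libraries lie apart from each other.

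At day 5, 6 of the 10 Hoxb genes and Hoxd1 were lower in KO than in control. Of the 21 tested, 7 were called lower, where 21.7% of all genes were, and 1 was called higher, where 21.9% of all genes were (43.5% in either direction). Both KO libraries lay below both controls in 10, where 35.2% of all genes did, and above in Hoxa9 and Hoxa10, where 35.4% did. The genes called lower were Hoxb1 to Hoxb6 and Hoxd1, that is 4 of 5 tested anterior genes and 3 of 9 central genes. Of the other Hoxb genes, Hoxb7 (edgeR adjusted p = 0.118), Hoxb8 (0.0556) and Hoxb9 (0.907, with 43 counts in control and 51 in KO) did not pass and Hoxb13 was not tested. DESeq2 called 7 lower, among them Hoxb8 and not Hoxb1, and 0 higher, with 1 higher at an unadjusted p under 0.05. The median log2 fold change was -1.57 over the anterior genes, -1.57 over the central genes and 0.15 over the 7 posterior genes tested, against 0.01 over all genes. By cluster it was -1.69 over 9 Hoxb, 1.625 over 3 Hoxa, 0.45 over 3 Hoxc and -0.42 over 6 Hoxd genes. The tested central genes outside Hoxb were Hoxc6 (0.45), Hoxc8 (-0.01), Hoxd4 (0.28) and Hoxd8 (-0.46), and none was called. The fall over central genes was thus a fall of Hoxb genes. The summed Hoxb level was 184.9 ± 4.67 CPM in control and 51.1 ± 31.1 CPM in KO (SD, n = 2).

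Hoxb2 held 51.8 and 50.7 CPM in control and 18.1 and 7.24 CPM in KO (log2 fold change -2.02 ± 0.35, SE, edgeR adjusted p = 0.00457). Hoxb3 held 39.0 and 37.7 CPM against 14.9 and 10.9 CPM (-1.57 ± 0.18, adjusted p = 0.000134). Hoxb5 held 19.6 and 17.3 CPM against 6.41 and 1.92 CPM (-2.15 ± 0.47, adjusted p = 0.0114). In each of these the groups did not overlap, and KO library 2 was the lowest of the 4. Hoxb6 held 39.3 and 34.9 CPM in control, with 12 CPM in KO library 1 and 1.83 CPM in KO library 2 (-2.43 ± 0.70, adjusted p = 0.0412). Hoxb4 held 14.4 and 15.6 CPM against 7.13 and 2.18 CPM (-1.69 ± 0.53, adjusted p = 0.0443). Hoxd1, an anterior gene, held 9.61 and 7.65 CPM against 3.34 and 1.22 CPM (-1.92 ± 0.56, adjusted p = 0.0226). Hoxb1 held 2.68 and 4.77 CPM against 0.99 and 1.66 CPM (-1.48 ± 0.42, adjusted p = 0.0188). Control spread was narrow beside these differences, except in Hoxb1.

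Hoxa9, a posterior gene known for its part in blood cell and limb development, was the one member called higher by edgeR, and DESeq2 did not call it. It held 0.50 and 0.60 CPM in control and 3.34 and 2.01 CPM in KO (log2 fold change 2.27 ± 0.57, SE, edgeR adjusted p = 0.0125). Hoxa2 to Hoxa7 and Hoxa11 did not pass the filter on low counts and were not tested. Hoxa9 was under 1 CPM in the other groups of days 3 and 5, so it passed the filter only through day 5 KO, where it is high. Hoxa10, its neighbour, held 1.19 and 0.30 CPM against 3.34 and 1.31 CPM and did not pass the test. The posterior share of the summed Hox level was 6.64% to 8.07% in control and 21.8% to 25.2% in KO, although the posterior sum itself was 18.8 and 14.3 CPM in control and 33.3 and 10.6 CPM in KO and overlapped. Leaving out either control library kept 3 of the 8 calls. Hoxa9, Hoxb4, Hoxb6 and Hoxd1 were lost in both cases, Hoxb5 without control library 1 and Hoxb1 without control library 2. Leaving out a KO library removes the spread of the KO pair, the widest at days 3 and 5. Such a fit cannot show whether the calls depend on that library. Over the 4 fits that each left out 1 library, the log2 fold change of Hoxb6 ran from -4.34 to -1.64 and that of Hoxb3 from -1.82 to -1.37.

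Markers of several cell types differed between the groups and between the KO libraries of day 5. Of all genes, 21.9% were called higher in KO and 21.7% lower. The 9 fibroblast and mesenchyme markers summed to 510.5 CPM in library 1 and 151.9 CPM in library 2, against 1131 to 1402 CPM in control, with 3 of 8 tested lower and none at 0 in either group. The 7 blood markers summed to 204 and 61.3 CPM against 1217 to 1277 CPM, with 4 of 6 tested lower and Spi1 at 0 in KO. The 7 markers of undifferentiated cells summed to 210.4 and 391.5 CPM against 51.0 to 56.9 CPM, with 6 of 7 higher. The 8 cardiac markers summed to 525.9 and 237.9 CPM against 1115 to 1209 CPM, with 5 of 8 lower and 1 higher. The 8 neural tube markers summed to 109 and 118 CPM against 19.2 to 25.1 CPM, with 4 of 6 tested higher and Dbx1 at 0 in control, and 3 of 6 neuron markers were higher. In bulk RNA, fewer cells of a type and less RNA per cell cannot be told apart. The part of these lists in the Hox differences was not tested.

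Whether the KO effect differed between days 3 and 5 was tested as an interaction. No Hox gene of 21 was called, where 24.2% of all genes were. Most of the 21 passed the filter through day 5 and had few counts at day 3, which limits this test. In edgeR 2 had an unadjusted p under 0.05, both lower, and DESeq2 called 3 (Hoxb4, Hoxb5 and Hoxb7), also lower. Leaving out either day 5 KO library changed the number called by edgeR, but it also removes the spread of that pair. Hoxb4, Hoxb5 and Hoxb7 had no count in day 3 control and 6, 5 and 10 counts in day 3 KO.

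Of 11 tested axial regulators, which act on the clusters, 7 were called lower in KO and 0 higher at day 3, where 16.9% of all genes were lower. At day 5, 5 were called higher, where 21.9% of all genes were, and 1 lower, where 21.7% were. Cdx2, a caudal factor that activates central Hox genes, held 11 and 12.4 CPM in day 3 control and 1.33 and 1.10 CPM in day 3 KO (log2 fold change -3.26 ± 0.84, SE, edgeR adjusted p = 0.0389). At day 5 it held 33.8 and 27.8 CPM against 62.2 and 20.9 CPM, which overlapped. Cdx1 fell in KO at day 3 (-1.78 ± 0.34, adjusted p = 0.0039) and was called higher at day 5 (adjusted p = 0.00815), on 1 count in control and 15 in KO, a ratio of 13.4 with a 95% counting interval of 2.06 to 565. Of the 9 TALE cofactors, 5 were lower and 1 higher on each day, against 32.9% of all genes called in either direction at day 3 and 43.5% at day 5. Meis2 held 67.3 and 60.8 CPM in day 5 control and 33.6 and 28.2 CPM in KO (-1.05 ± 0.12, adjusted p = 0.000115), and the groups did not overlap.

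Of 12 tested retinoic acid genes 3 were higher and 2 lower at day 5, near the 21.9% and 21.7% of all genes. Aldh1a2, which makes retinoic acid, held 0.099 and 0.70 CPM in control and 3.43 and 4.45 CPM in KO (log2 fold change 3.28 ± 0.61, SE, edgeR adjusted p = 0.00219), and Cyp26a1, which degrades it, held 9.51 and 14 CPM against 41.1 and 141 CPM (2.96 ± 0.71, adjusted p = 0.0294). Of 24 Polycomb and trithorax genes 4 were higher and 8 lower, with a median log2 fold change of 0.09 and 43.5% of all genes called in either direction, and DESeq2 called 3 higher and 3 lower. Cbx7, a chromobox subunit of a Polycomb complex, held 21.5 and 24 CPM in control and 43.4 and 68.3 CPM in KO (1.30 ± 0.22, adjusted p = 0.0055).

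At day 10 posterior and central Hox genes were higher in the libraries labelled KO than in control, and no anterior gene was called. Of the 35 tested, 15 were called higher, where 1.92% of all 17022 genes were, and 0 were called lower, where 3.35% were (5.27% in either direction). No Hox gene was lower at an unadjusted p under 0.05, and DESeq2 called 22, all among 25 that were higher at an unadjusted p under 0.05. The calls held 0 of 7 anterior, 6 of 15 central and 9 of 13 tested posterior genes. The median log2 fold change was 0.79 over the anterior, 1.59 over the central and 2.01 over the posterior genes, against 0.02 over all genes. The difference between these bands was not tested. By cluster, 4 Hoxa, 3 Hoxb, 5 Hoxc and 3 Hoxd genes were called.

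Promoter windows of 4 members are shown for the letters that caudal and Meis factors are known to bind, which 3 of them hold and that of Hoxa10, the gene with the smallest p in day 10 KO against control, does not. Each window is the 250 bases before the gene's start in RefSeq (build GRCm38.p6), read 5′ to 3′ on the gene's strand, with matches in capitals on either strand. The letters searched were TTTATG (caudal type, CATAAA on the other strand) and TGACAG (Meis type, CTGTCA on the other strand), which share no overlap here. Windows were found for 22 of the 38 genes.
Hoxa7 (chr6:52218574-52218823, minus strand, 2 caudal type matches): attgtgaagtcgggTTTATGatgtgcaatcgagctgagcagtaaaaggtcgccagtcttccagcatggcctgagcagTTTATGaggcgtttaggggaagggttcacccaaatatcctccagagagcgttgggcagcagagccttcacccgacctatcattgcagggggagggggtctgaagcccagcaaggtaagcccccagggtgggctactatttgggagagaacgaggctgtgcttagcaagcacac
Hoxb8 (chr11:96281655-96281904, plus strand, 2 caudal type matches, 1 on each strand): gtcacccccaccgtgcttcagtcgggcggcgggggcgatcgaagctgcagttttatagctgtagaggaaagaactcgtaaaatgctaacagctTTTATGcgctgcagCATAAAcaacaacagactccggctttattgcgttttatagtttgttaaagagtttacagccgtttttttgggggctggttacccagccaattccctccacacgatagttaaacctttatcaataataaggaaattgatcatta
Hoxa2 (chr6:52164832-52165081, minus strand, 1 Meis type match): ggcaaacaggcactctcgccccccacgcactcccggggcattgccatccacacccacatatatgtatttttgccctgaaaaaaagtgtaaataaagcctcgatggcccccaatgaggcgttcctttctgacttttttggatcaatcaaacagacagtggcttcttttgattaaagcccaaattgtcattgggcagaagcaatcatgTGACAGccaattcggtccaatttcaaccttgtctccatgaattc
Hoxa10 (chr6:52240855-52241104, minus strand, no match): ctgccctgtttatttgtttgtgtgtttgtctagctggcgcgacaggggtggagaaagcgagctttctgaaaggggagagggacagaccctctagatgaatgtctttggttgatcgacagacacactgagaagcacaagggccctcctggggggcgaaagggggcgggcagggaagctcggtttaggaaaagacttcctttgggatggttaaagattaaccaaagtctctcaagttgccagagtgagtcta

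Among the 24 Hox windows (a pair of genes have 2 each), 5 held the caudal letters (20.8%), those of Hoxa7, Hoxb8, Hoxd3, Hoxd4 and Hoxd11, against 10.8% of all 32851 windows. The Meis letters were in 2 Hox windows (8.33%), those of Hoxa2 and Hoxa3, against 15.9% of all windows. Hoxa7 and Hoxd11 were among the genes called higher in day 10 KO and Hoxb8, Hoxd3 and Hoxd4 were not. Hoxa2 and Hoxa3 were both called higher with IWR1. A match of this length is a description of the letters in the window.

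Per kilobase, Hoxc10, Hoxa10 and Hoxa11 were the highest Hox genes in KO, at 19.7, 13.9 and 10.5 CPM per kilobase, followed by Hoxd8 at 4.77. Hoxa10, a gene of the lumbar level, limb and uterus, held 6.69 and 8.53 CPM in control and 38.3 and 52.5 CPM in KO (log2 fold change 2.58 ± 0.26, SE, edgeR adjusted p = 0.00847). Hoxa9 held 2.87 and 4.24 CPM against 13.2 and 15.4 CPM (2.01 ± 0.31, adjusted p = 0.0207). Hoxa11, which patterns the forearm and kidney, held 2.94 and 6.06 CPM against 24.5 and 23.8 CPM (2.42 ± 0.37, adjusted p = 0.0207). In these 3 genes the KO libraries lay well above both control libraries, and in all 3 control library 2 was the higher control. Hoxa13, the last gene of the cluster, held 1.89 and 3.52 CPM against 11.5 and 7.57 CPM and did not pass the test.

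Hoxc10 held 3.43 and 4.53 CPM in control against 37.6 and 37.7 CPM in KO (log2 fold change 3.24 ± 0.46, SE, edgeR adjusted p = 0.017). Hoxc11 held 0.23 and 0.24 CPM against 2.38 and 2.00 CPM (3.20 ± 0.40, adjusted p = 0.0123, from 19 and 171 counts). Hoxc9 held 0.75 and 1.43 CPM against 5.02 and 7.27 CPM (2.50 ± 0.41, adjusted p = 0.0254). These genes pattern the lower thoracic and lumbar levels and the hindlimb. Hoxc10 and Hoxc5 share 166 bases of exon on the same strand in the annotation, so some reads may have been assigned to either. Hoxc12 had 0 counts in every library of the series except day 10 KO library 1, which had 2.

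Of the posterior Hoxd genes, Hoxd9 and Hoxd11 were called. Hoxd9 held 2.71 and 3.95 CPM in control and 8.17 and 9.79 CPM in KO (log2 fold change 1.43 ± 0.30, SE, edgeR adjusted p = 0.0497), the smallest change among the called genes. This call was lost with RLE scaling, with the replicate block and without any 1 of the 4 libraries (adjusted p from 0.00147 to 0.354 over 11 alternatives). Hoxd11 held 2.03 and 3.97 CPM against 12.7 and 10.4 CPM. Hoxd10 and Hoxd12 held 1.59 and 3.95 CPM against 6.26 and 7.63 CPM, and 0.63 and 1.09 CPM against 3.49 and 2.62 CPM, without passing the test. Hoxd13, which patterns the digits, held 2.68 and 8.08 CPM against 12.9 and 7.27 CPM and was the one tested posterior gene whose groups overlapped. In the Hoxb cluster, Hoxb9 was called, at 0.28 and 0.72 CPM in control and 3.18 and 2.92 CPM in KO.

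The central genes called were Hoxa7, Hoxb6, Hoxb7, Hoxc4, Hoxc5 and Hoxd8. Hoxa7, a thoracic gene, held 0.61 and 1.19 CPM in control and 4.83 and 6.61 CPM in KO (log2 fold change 2.67 ± 0.41, SE, edgeR adjusted p = 0.0213). Hoxc4 held 0.79 and 1.27 CPM against 4.54 and 5.17 CPM (2.23 ± 0.35, adjusted p = 0.0234). Hoxd8 held 4.29 and 4.37 CPM against 12.8 and 13.4 CPM, and Hoxb7 held 1.38 and 0.66 CPM against 4.05 and 6.01 CPM. All of these had both KO libraries above both control libraries. Hoxb4 went the other way, with 5.88 and 5.83 CPM in control and 5.34 and 4.65 CPM in KO, and was not called.

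No anterior gene passed the test. Hoxb2 held 11.4 and 10.5 CPM in control and 7.62 and 9.29 CPM in KO, Hoxb3 held 7.21 and 9.08 CPM against 8.47 and 8.45 CPM, and Hoxb1 held 0.19 and 0.98 CPM against 0.27 and 0.71 CPM. Hoxd3 had the lowest unadjusted p of the 7, at 0.0175 (adjusted p = 0.139 in edgeR), with 0.37 and 0.79 CPM against 1.43 and 1.64 CPM. Hoxd3 shares 388 bases of exon with Hoxd4. The anterior sum was 23.3 ± 3.05 CPM in control and 24.2 ± 2.10 CPM in KO, and the posterior sum was 39.7 ± 15.4 CPM and 183.7 ± 5.09 CPM (SD, n = 2 each).

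In all, 29 of 35 tested genes had both KO libraries above both control libraries, where 25.7% of all genes did, and Hoxb2 and Hoxb4 had both below, where 25.3% did. The posterior share of the summed Hox level was 36.3% and 48.0% in the control libraries and 66.5% and 64.0% in the KO libraries, and the anterior share was 26.6% and 24.1% against 8.40% and 8.79%. Across the 35 genes the fold change and the paralog number had a Spearman rho of 0.55, which was 0.92 over 9 Hoxb genes, 0.54 over 7 Hoxc genes, 0.49 over 10 Hoxa genes and 0.18 over 9 Hoxd genes. These are descriptions across genes that share libraries and cluster neighbours. The calls depended on single libraries. Without control library 1 none of the 15 was kept, without control library 2 or KO library 2 it was 3, and without KO library 1 it was 12. Fold changes of the 9 genes given with their statistics stayed positive in all of these, and Hoxa10, the most stable, kept its call in 3 of 4.

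**Figure D3:**
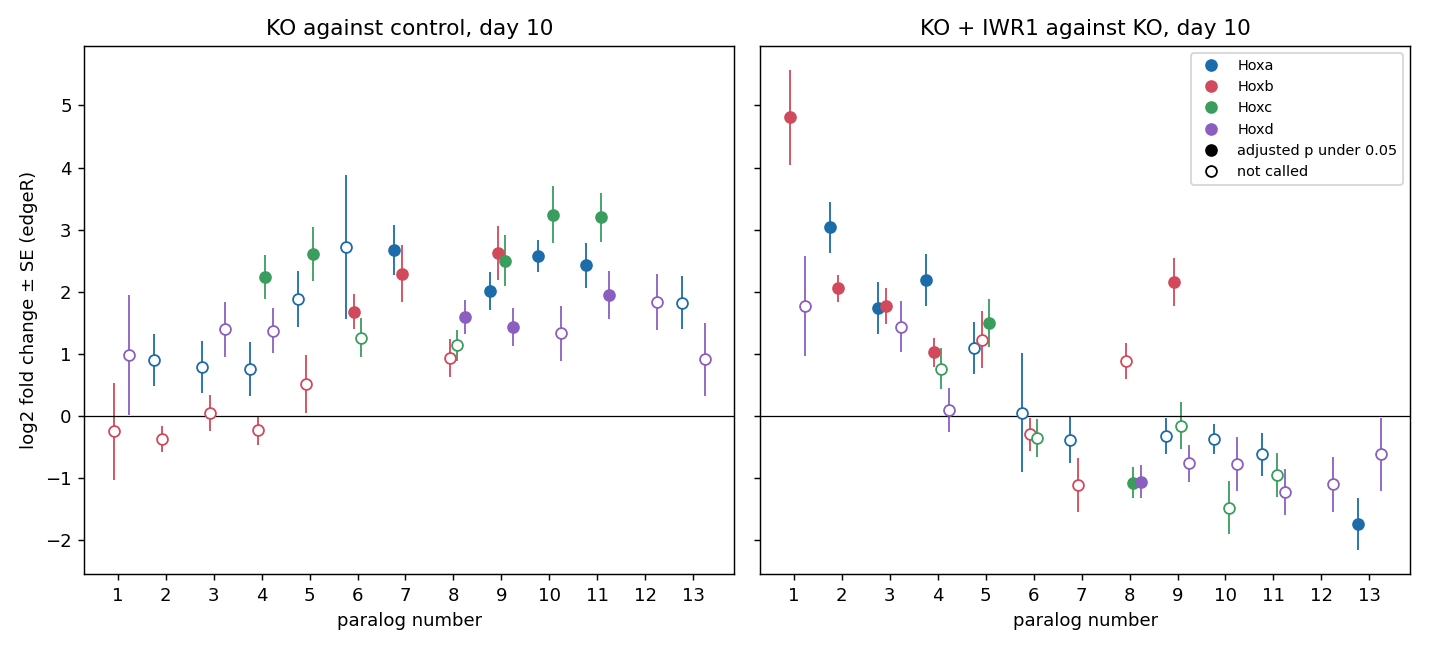
Log2 fold change with its SE from edgeR (y axis) against paralog number (x axis) for the 35 Hox genes tested at day 10, coloured by cluster and filled where the adjusted p is under 0.05. The left panel compares KO with control, where no gene of paralogs 1 to 3 is filled, and the right panel compares KO with IWR1 against KO, where all 7 of those genes lie above 0 and 12 of 13 genes of paralogs 9 to 13 lie below 0. Both panels use the same KO libraries.

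Markers of other tissues moved at day 10 as well, where 1.92% of all genes were called higher in KO and 3.35% lower. The 9 fibroblast, feeder and mesenchyme markers summed to 7123 to 7708 CPM in control and 19560 to 25160 CPM in KO, with 2 of 9 (Dcn and Lum) called higher by edgeR, 6 higher and 1 lower by DESeq2, and none at 0. The 8 cardiac and muscle markers summed to 3394 to 3552 CPM and 237 to 311.3 CPM, with 6 of 8 called lower. The 8 neural tube markers summed to 90.3 to 106.6 CPM and 41.5 to 70.8 CPM, with 4 of 8 lower and Dbx1 at 0 in KO. The 7 blood markers summed to 767.9 to 1331 CPM and 1670 to 1793 CPM with 0 called. Of 6 extraembryonic and gut endoderm markers 3 were called lower. Blood (7 genes), endothelium (6), neurons (6), undifferentiated cells (7) and presomitic mesoderm (6 tested) had no member called by edgeR, with 3, 2, 4, 0 and 0 at an unadjusted p under 0.05. DESeq2 called 1 blood marker higher, 1 neuron marker higher and 2 lower, and 0 in the other 3 lists. The part of these lists in the Hox differences was not tested.

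At day 10, 5.27% of all genes were called between control and KO, 1.92% higher and 3.35% lower. A count of 0 in a short list of genes that act on the clusters is near that share. None of 11 tested axial regulators, 9 TALE cofactors, 24 Polycomb and trithorax genes or 10 cluster neighbours was called by edgeR, with 4, 1, 1 and 2 at an unadjusted p under 0.05, and DESeq2 called 2 axial regulators lower and 0 of the others. Cdx2 held 23.7 and 22.2 CPM in control and 4.95 and 4.43 CPM in KO, and Meis1 held 46.3 and 60.2 CPM against 92.5 and 91.4 CPM, without passing the test. Retinoic acid genes had 2 called higher and 1 lower of 13. Rarb, a retinoic acid receptor that is itself a target of retinoic acid, held 13.7 and 16.1 CPM against 52.1 and 49.7 CPM (log2 fold change 1.77 ± 0.25, SE, edgeR adjusted p = 0.017). Aldh1a2 held 11.6 and 20.9 CPM against 49.8 and 61.4 CPM (1.78 ± 0.31, adjusted p = 0.0299). Cyp26c1, a retinoic acid degrading enzyme, held 3.15 and 1.64 CPM against 0.024 and 0.082 CPM (-5.45 ± 0.70, adjusted p = 0.0128).

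With IWR1 the KO embryoid bodies of day 10 had 5 of 7 anterior Hox genes higher than untreated KO. Of 35 tested, 9 were called higher, where 5.77% of all genes were, and 3 lower, where 8.08% were (13.9% in either direction). The genes called higher were 5 of 7 anterior (Hoxa2, Hoxa3, Hoxb1, Hoxb2 and Hoxb3), 3 of 15 central (Hoxa4, Hoxb4 and Hoxc5) and 1 of 13 posterior (Hoxb9), and those called lower were Hoxc8, Hoxd8 and Hoxa13, a share near that of all genes. The median log2 fold change was 1.77 over the anterior, 0.10 over the central and -0.76 over the posterior genes, against -0.01 over all genes. This comparison and that of KO with control share the KO libraries, so their values are not independent.

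Hoxb1 held 0.27 and 0.71 CPM in KO and 12.5 and 14.8 CPM with IWR1 (log2 fold change 4.81 ± 0.76, SE, edgeR adjusted p = 0.0171), the largest change among the called genes. Hoxa2, which patterns the hindbrain and the second pharyngeal arch, held 1.5 and 1.91 CPM against 12.1 and 16.1 CPM (3.04 ± 0.41, adjusted p = 0.0127). Hoxb2 held 7.62 and 9.29 CPM against 34 and 36.4 CPM (2.06 ± 0.21, adjusted p = 0.00729). Hoxb3 held 8.47 and 8.45 CPM against 22.1 and 35.6 CPM (1.77 ± 0.29, adjusted p = 0.0179). All 4 had no overlap, and the treated libraries agreed closely with each other in Hoxb1 and Hoxb2. Hoxd1 and Hoxd3 lay above KO in both treated libraries, at 0.68 and 0.36 CPM against 0.24 and 0.055 CPM, and at 3.54 and 4.8 CPM against 1.43 and 1.64 CPM, without passing the test.

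Hoxb9 stood apart from the other posterior genes. It held 3.18 and 2.92 CPM in KO and 12.6 and 14.7 CPM with IWR1 (log2 fold change 2.16 ± 0.39, SE, edgeR adjusted p = 0.0207), and it was the single tested posterior gene with a positive fold change. Its cluster neighbours Hoxb6 and Hoxb7 held 4.08 and 4.59 CPM against 3.33 and 3.72 CPM, and 4.05 and 6.01 CPM against 1.97 and 2.70 CPM. Hoxb8, between Hoxb7 and Hoxb9, held 3.23 and 2.46 CPM against 4.82 and 5.71 CPM. None of these 3 passed the test.

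Of the genes called lower with IWR1, Hoxa13 held 11.5 and 7.57 CPM in KO and 3.48 and 2.23 CPM with IWR1 (log2 fold change -1.74 ± 0.42, SE, edgeR adjusted p = 0.0438). Hoxc8, a thoracic gene, held 9.78 and 12.5 CPM against 5.24 and 5.32 CPM (-1.08 ± 0.25, adjusted p = 0.0373), and Hoxd8 held 12.8 and 13.4 CPM against 5.13 and 7.44 CPM. Hoxc10 held 37.6 and 37.7 CPM against 7.68 and 19.4 CPM and was not called by edgeR (adjusted p = 0.0651), while DESeq2 called it lower. Hoxa10 held 38.3 and 52.5 CPM against 31.8 and 38.5 CPM and was the highest Hox gene per kilobase with IWR1, at 10.8 ± 1.44 CPM per kilobase (SD, n = 2). In all, 15 genes, among them all 7 anterior, had both treated libraries above both KO libraries, where 28.6% of all genes did. A further 13 had both below, 5 central and 8 posterior, where 30.2% of all genes did.

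Across the 35 genes the fold change with IWR1 and the paralog number had a Spearman rho of -0.81, with -0.95 over 10 Hoxa, -0.71 over 7 Hoxc, -0.68 over 9 Hoxd and -0.47 over 9 Hoxb genes, again as descriptions across genes. The anterior share of the summed level was 34.8% and 34.9% with IWR1 and the posterior share 40.2% and 38.5%. The summed level of all 38 genes was 281.8 ± 15.4 CPM in KO and 309.7 ± 56.1 CPM with IWR1 (SD, n = 2). Without KO library 1, KO library 2 or treated library 1, 3 of the 12 calls were kept in each case, and without treated library 2 it was 7. Hoxa2 and Hoxb2 kept their calls in all 4. Of the genes called lower, Hoxa13 and Hoxc8 kept their calls in none and Hoxd8 in 1. With the replicate number as a block 7 genes were called, all higher.

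**Figure D4:**
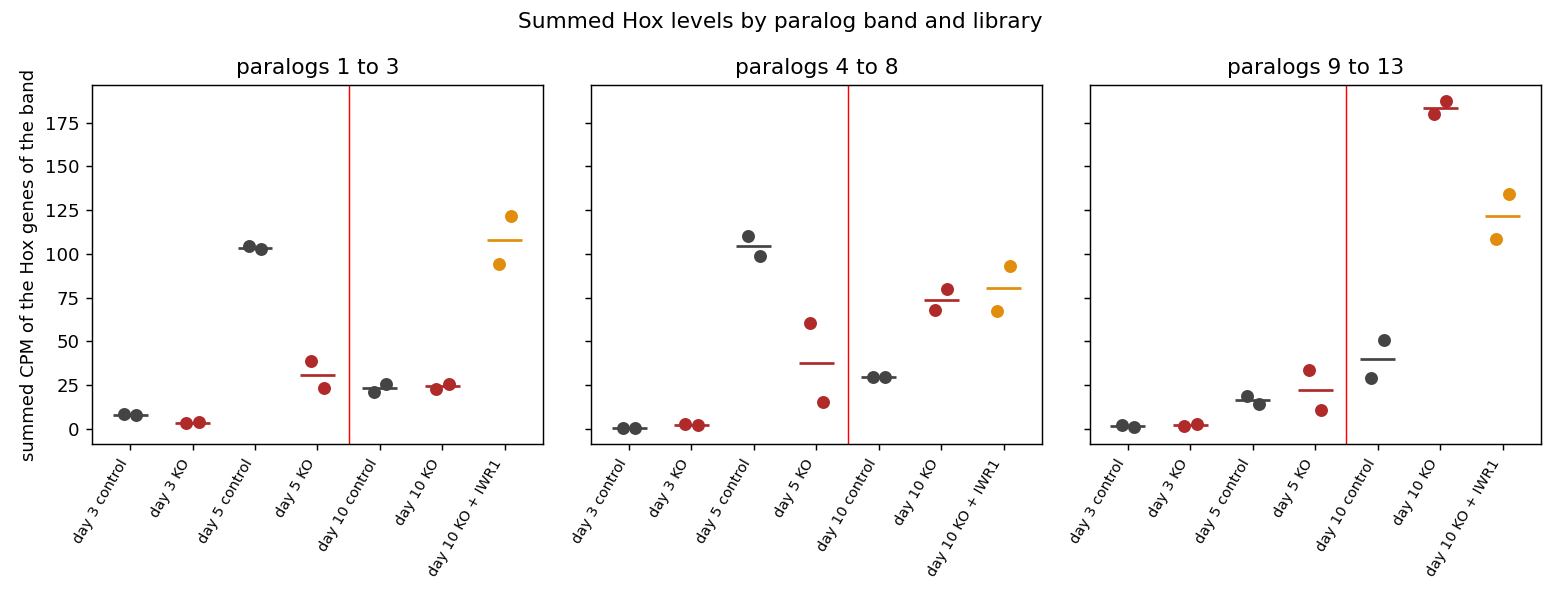
Summed CPM of the Hox genes of each paralog band (panels) in each group (x axis), with 1 point per library and a bar at the mean, days 3 and 5 left of the red line and the separately normalized day 10 table right of it. Paralogs 1 to 3 sum to about the same in day 10 control and KO and are highest there with IWR1, while paralogs 9 to 13 are highest in KO.

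Set directly against control, KO with IWR1 had 19 of 35 Hox genes called higher, where 2.99% of all genes were, and 0 called lower, where 6.13% were (9.12% in either direction). None was lower at an unadjusted p under 0.05, and DESeq2 called 23, all higher. These were 6 of 7 anterior, 7 of 15 central and 6 of 13 posterior genes, and all 35 fitted fold changes were positive, with a median of 1.80 against 0.02 over all genes. Hoxb9 held 0.28 and 0.72 CPM in control and 12.6 and 14.7 CPM with IWR1 (log2 fold change 4.78 ± 0.46, SE, edgeR adjusted p = 0.00519). Hoxc5 held 0.35 and 0.61 CPM against 6.02 and 10.5 CPM (4.11 ± 0.45, adjusted p = 0.00644), and Hoxa2 held 0.58 and 1.24 CPM against 12.1 and 16.1 CPM (3.95 ± 0.43, adjusted p = 0.00644). Hoxc4 held 0.79 and 1.27 CPM against 6.85 and 9.65 CPM (3.00 ± 0.36, adjusted p = 0.00761).

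Hoxa7, Hoxa9, Hoxa10, Hoxa11, Hoxb6, Hoxb9, Hoxc4, Hoxc5, Hoxc9 and Hoxc11 were called higher than control both without and with IWR1, in comparisons that share the control libraries. Hoxa10 held 6.69 and 8.53 CPM in control and 31.8 and 38.5 CPM with IWR1 (log2 fold change 2.21 ± 0.26, SE, edgeR adjusted p = 0.00712). Hoxa5, a gene of the cervical level and lung, held 0.54 and 1.03 CPM against 4.51 and 7.83 CPM (2.98 ± 0.46, adjusted p = 0.0154), and was not called in untreated KO (adjusted p = 0.0671). Hoxb6 held 1.33 and 1.38 CPM against 3.33 and 3.72 CPM (1.38 ± 0.28, adjusted p = 0.0333), the smallest change called. In each, both treated libraries lay above both controls, as in 30 of 35 tested genes and 33.6% of all genes, and no Hox gene had both below, where 33.5% of all genes did. Without control library 1, 3 of the 19 calls were kept, without control library 2, 10, and without the first or second treated library, 13 and 17.

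**Figure D5:**
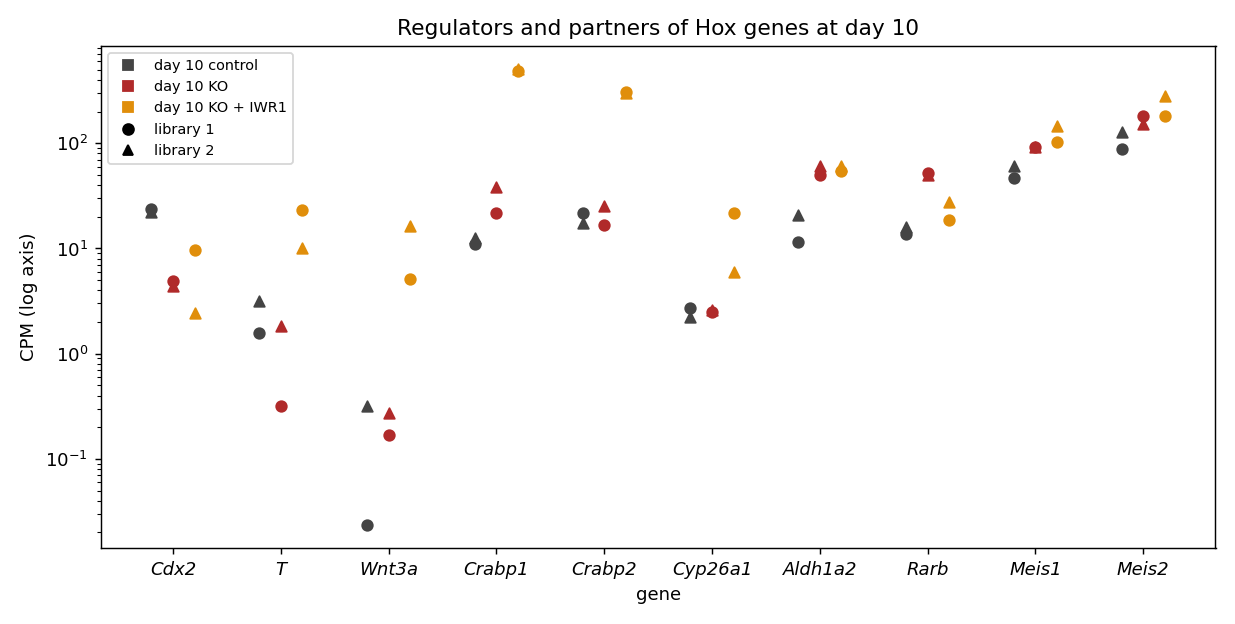
Level in CPM on a log axis of 10 genes that act with or on Hox genes (x axis) in the 6 day 10 libraries, with circles for library 1 and triangles for library 2. Crabp1 and Crabp2 lie between 297 and 511 CPM with IWR1 and between 11.1 and 38.7 CPM in the other libraries, and T and Wnt3a are highest with IWR1.

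Of 11 tested axial regulators, 5 were called higher with IWR1 than in KO and 0 lower, where 5.77% and 8.08% of all genes were. T held 0.32 and 1.83 CPM in KO and 23.4 and 10.1 CPM with IWR1. Wnt3a, a Wnt ligand of the tail bud and dorsal neural tube, held 0.17 and 0.27 CPM against 5.11 and 16.4 CPM (log2 fold change 5.59 ± 0.95, SE, edgeR adjusted p = 0.0186). Lin28a and Lin28b, RNA binding proteins of early trunk progenitors, held 28 and 22.2 CPM against 231 and 110 CPM, and 13.7 and 11.7 CPM against 101 and 55.6 CPM. Nr6a1, a nuclear receptor of the trunk stage, held 24.9 and 16.2 CPM against 87.7 and 62.0 CPM.

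The retinoic acid genes split, with 4 of 13 higher and 3 lower, where 5.77% and 8.08% of all genes were. Crabp1 and Crabp2, which bind retinoic acid in the cytoplasm and are abundant in hindbrain and spinal cord, held 21.5 and 38.7 CPM in KO and 487 and 511 CPM with IWR1 (log2 fold change 4.05 ± 0.33, SE, edgeR adjusted p = 0.00573), and 16.8 and 25.6 CPM against 305 and 297 CPM (3.83 ± 0.28, adjusted p = 0.00538). The treated libraries of both genes lay within a narrow range. Rarb held 52.1 and 49.7 CPM against 18.7 and 27.6 CPM (-1.14 ± 0.25, adjusted p = 0.0324). Of the hindbrain genes 4 of 8 tested were called higher (Gbx2, Fgf3, Otx2 and Pax2). Otx2, a forebrain and midbrain gene, held 2.01 and 2.13 CPM against 41.7 and 13.7 CPM. Of 24 Polycomb and trithorax genes edgeR called 2 higher (Ezh2 and Cbx2) and 0 lower, near the 5.77% of all genes called higher. DESeq2 called 7 higher and 0 lower. Ezh2, the histone H3 lysine 27 methyltransferase that silences Hox clusters, held 71.1 and 74.9 CPM against 217 and 181 CPM (1.45 ± 0.20, edgeR adjusted p = 0.0123). No TALE cofactor of 9 was called by edgeR in this comparison, with 1 at an unadjusted p under 0.05, and DESeq2 called 1 higher.

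With IWR1 against KO, 5.77% of all genes were called higher and 8.08% lower. Of 8 neural tube markers 7 were called higher with IWR1 than in KO, with sums of 41.5 to 70.8 CPM in KO, where Dbx1 was at 0, and 182.2 to 227.4 CPM with IWR1, where none was at 0. All 6 neuron markers were called higher, with sums of 33.4 to 37.7 CPM and 264.4 to 292 CPM. The 9 fibroblast markers summed to 19560 to 25160 CPM and 1251 to 3356 CPM, with 5 called lower and 2 higher and none at 0 in either group. Of 7 presomitic and paraxial mesoderm markers, 3 of 6 tested were higher, with sums of 10.5 to 11 CPM and 43.6 to 46.5 CPM. Of 6 extraembryonic and gut endoderm markers 3 were lower and 1 higher, with sums of 557.3 to 1298 CPM and 88.9 to 134.4 CPM. Of 8 cardiac markers 2 were higher and 2 lower. Among markers of undifferentiated cells 2 of 7 were lower, with 1 of 7 for blood and 1 of 6 for endothelium, and none higher. The part of these lists in the Hox differences was not tested.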

How the data were processed

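The authors deposited estimated counts per gene as whole numbers, in 1 table for days 3 and 5 and 1 for day 10. Per the submitters' processing notes they used kallisto 0.46.2 and mm10. For annotation release, gene-level summing and strand setting, the sources used here give nothing, and the labels name kits with and without strand, so antisense reads cannot be told apart. The counts were used as deposited, with no further rounding. Symbols, positions and exon lengths came from GENCODE vM21, with 35968 of 36047 identifiers matched and 79 not. 1 further gene of the family is not reported here.

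Groups came from the labels. Nothing in them says that replicate libraries came from different cultures, so a p-value reflects only how far these samples differ, and that spread may be technical. Each table was fitted with edgeR 4.0.16 in R 4.3.3 (filterByExpr, TMM, robust quasi-likelihood F test, two-sided, all groups of the table in 1 model, Benjamini-Hochberg over 14430 and 17022 genes, threshold 0.05), with 4 and 3 residual degrees of freedom and a biological coefficient of variation of 0.0915 and 0.248. The procedure was tested on simulated data. CPM used TMM-scaled library sizes, and per kilobase values the union of exons. The tables were normalized separately, so levels set across them hold only roughly. In the deepest and shallowest library 3 counts equal 0.062 and 0.298 CPM. Counting intervals and floors cover counting error only.

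Fold changes with errors are given for members called, at most 8 with the smallest p per comparison plus the largest and smallest called. 15 lists of regulators and cell type markers were counted. The members and lists were chosen with earlier results of these data known. Alternatives were DESeq2 1.42.0, RLE scaling, no filter, no robust estimation, only the groups compared, a replicate block and leaving out each library. Stra13, Prac1 and Prac2 were not used here.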

Additional observations from a re-analysis of the deposited data

How the results depend on the processing

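The number of Hox genes called stayed within 1.5 times of the value reported under the alternatives, except as follows. At day 3, 1 call became 2 with no filter on low counts and 2 with DESeq2, and 0 to 1 when 1 library was left out. At day 5, 8 calls became 5 when only the compared groups were fitted, and 3 to 12 when 1 library was left out. The difference of the KO effect between days went from 0 to 3 with DESeq2 and to between 0 and 6 when 1 library was left out. At day 10, leaving out 1 library gave 0 to 12 calls for KO against control (15), 3 to 8 for IWR1 against KO (12) and 3 to 17 for IWR1 against control (19), and fitting only the compared groups gave 7 for IWR1 against KO. These fits have fewer samples, and where 1 library is left its spread is assumed to be that of the other groups. With the replicate number of the labels as a block, the difference of the KO effect between days had 1 call and IWR1 against KO had 7, and the block moved no other count by over 1.5 times. The labels do not say that numbers pair libraries, and deviations of same-numbered libraries correlated between -0.02 and 0.05 at days 3 and 5 and at -0.30, -0.32 and 0.24 at day 10. With the numbers of the KO libraries crossed, an alternative chosen after seeing the data, KO against control had 23 calls and IWR1 against KO had 18. For 55 fold changes of called genes, not all printed above, 566 values were recomputed. Of these, 477 kept their side of the threshold, 89 did not and none changed sign. The 55 were picked as called genes, mostly by smallest p, so a kept sign was likely beforehand. The cause was not tested. Depth limits day 3, where 30 of 38 genes in control and 23 in KO had at most 3 counts over both libraries.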

Other observations

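Paralog groups did not behave as blocks at day 5. In control, Hoxb6 stood at 39.3 and 34.9 CPM while Hoxa6 had no count, Hoxb5 at 19.6 and 17.3 CPM while Hoxa5 held 0.40 and 0 CPM, and Hoxb4 at 14.4 and 15.6 CPM while Hoxa4 held 0 and 0.099 CPM. Per kilobase, Hoxb2 reached 14.7 ± 0.24 CPM (SD, n = 2), and Hoxa2 held 0.099 CPM in each library before division by length. In day 10 KO with IWR1 the Hoxa cluster held 34.2% to 34.3% of the summed Hox level and the Hoxb cluster 37.5% to 38.6%.

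There were 10 tested genes that lie within or beside the clusters and are not Hox genes. At day 10 with IWR1 against KO, 1 was called, where 13.9% of all genes were. It was Skap1, which lies beside Hoxb1 and was higher (log2 fold change 2.43 ± 0.55, SE, edgeR adjusted p = 0.0356), at 0.17 and 0.27 CPM in KO and 1.53 and 0.85 CPM with IWR1. In KO against control at day 3, 4 were higher and 1, Evx1, was lower, where 16% and 16.9% of all genes were. At day 5, 4 were higher and 2 lower, where 21.9% and 21.7% were. At day 5 Skap1 was at 3.77 and 3.78 CPM in control and 0.99 and 0.79 CPM in KO. Evx1, next to Hoxa13, held 118 and 123 CPM in day 3 control and 3.45 and 4.56 CPM in day 3 KO (-4.91 ± 0.14, adjusted p = 1.55e-08), while Hoxa13 held 7 counts over the day 3 control libraries and 3 over the KO libraries.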
